A study of Mus musculus with 6 samples.

Results

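The genes described here encode subunits of respiratory complexes II, III and IV, the electron carrier cytochrome c, and complex V, the ATP synthase. They were chosen by symbol, without the use of any measured value: Sdha to Sdhd, Cyc1, Cycs, 6 named Cox genes, 6 mitochondrial mRNAs, and all symbols that begin with Uqcr or Atp5. This gave 44 of 21763 rows, or 43 of 21741 distinct symbols, because Atp5o had a second row that was at 0 in every library. Of these genes 37 are encoded in the nucleus and 6 in mitochondrial DNA (mtDNA), and all 43 passed the filter on low counts. By complex there were 4 nuclear genes for complex II, 9 for complex III, 1 for cytochrome c, 6 for complex IV and 17 for complex V. The mtDNA genes were 1 for complex III, 3 for complex IV and 2 for complex V. Complex II has no subunit encoded in mtDNA.

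RNA was sequenced from mouse primary cardiomyocytes, heart muscle cells taken from the heart and kept in culture. In 3 libraries the cells had received an adenovirus for ABHD11, a mitochondrial hydrolase, and are labelled Adv-ABHD11 with the genotype given as ABHD11 overexpression. In 3 libraries they had received the control adenovirus and are labelled Adv-NC with the genotype given as WT. Cells of both groups spent 24 h in hypoxia, and all libraries carry the same batch number. The study's title connects ABHD11 with transcription of mtDNA, which is the question behind a comparison of these genes by genome of origin. Whether replicate libraries were made from different cultures or animals is not stated in the labels. The p-values therefore measure the spread between samples alone, and this spread may be technical. Neither the promoter of the viral transgene nor its species is given in the sources used here, and normoxic cells were not analysed here.

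Oxidative phosphorylation passes electrons from NADH and succinate along the chain to oxygen. Complex II oxidises succinate and hands electrons to ubiquinone, complex III passes them to cytochrome c, and complex IV uses them to reduce oxygen. Complexes III and IV pump protons across the inner mitochondrial membrane, and complex V lets the protons flow back and makes ATP. Complexes III, IV and V are built from subunits of both genomes: the nuclear subunits are made in the cytosol and imported, whereas the mtDNA subunits are made on ribosomes inside the organelle. The mtDNA mRNAs are cut out of long precursor transcripts that cover many genes. Heart muscle is among the tissues richest in these complexes.

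Library totals ran from 16291160 to 19525216 counts with Adv-ABHD11 and from 18217149 to 20336832 counts with Adv-NC, so 1 count was worth 0.0492 to 0.0614 CPM, a unit in which every library is scaled to the same total. Mouse Abhd11 had 38.0, 42.5 and 36.2 CPM in the Adv-ABHD11 libraries, against 31.5, 35.2 and 33.9 CPM in the Adv-NC libraries. The groups did not overlap, but the log2 fold change of 0.21 ± 0.101 (SE) did not pass the test (edgeR quasi-likelihood test, adjusted p = 0.0765). Transcripts of the transgene may or may not be counted on the mouse gene, and the groups are used as labelled. Over all 12790 genes tested, 29.9% were higher and 29.5% lower with Adv-ABHD11 at an adjusted p under 0.05, and the counts of markers that follow stand beside those shares. Cardiomyocyte markers were abundant in both groups and higher with Adv-ABHD11: 14 of 15 passed as higher, with a summed level of 51045 to 54389 CPM, against 28771 to 30756 CPM with Adv-NC. The endothelial list was higher for 7 of 8 genes and the smooth muscle list for 6 of 7, while the epicardial list was lower for 5 of 6 and higher for 1. The fibroblast list had 2 higher and 4 lower of 8, and the leukocyte list 1 higher and 2 lower of 6 tested. All 8 lung epithelium markers were higher, with sums of 134 to 146 CPM with Adv-ABHD11 and 0 to 0.0513 CPM with Adv-NC, where 7 of the 8 were at 0 in every library. All 4 tested red cell markers were also higher, and sums over that list were 22.8 to 25.9 CPM with Adv-ABHD11 and 0.313 to 0.647 CPM with Adv-NC. The libraries of the arms therefore differed in markers of several cell types, whose part in the results on subunit genes was not tested. In bulk RNA, fewer cells of a type and less RNA per cell cannot be told apart.

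Subunit genes were almost uniformly higher in the Adv-ABHD11 libraries. Of the 43 genes, 40 were higher, 0 were lower, and 3 (Atp5b, mt-Co2 and mt-Cytb) did not pass at an adjusted p under 0.05. In the same test 29.9% of all 12790 genes tested were higher and 29.5% were lower, so the share of higher subunit genes was far above that of the table, while a call as such was common: 59.3% of all genes passed in either direction. The median log2 fold change of the 43 genes was 0.57, beside 0.02 over all genes tested. For 40 of the 43 the libraries of the arms did not overlap and lay higher with Adv-ABHD11, beside 31.5% of all genes tested, and for 0 did they lie lower without overlap, beside 31.7%. These 40 were not the same as the 40 that passed: Atp5b had no overlap but did not pass, and Uqcrq passed with an overlap. Together the subunit genes held 7.94 ± 1.07% of all counts with Adv-ABHD11 and 3.92 ± 0.176% with Adv-NC (mean ± SD, n = 3 each).

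The spread of the changes is given by genome. Here and by complex below, counts of higher genes stand beside the 29.9% higher of all genes tested. The nuclear genes lay in a narrow band, with 36 of 37 higher, log2 fold changes between 0.21 and 0.89, a median of 0.53, and 0 genes at least 2-fold higher. With 1 library left out a nuclear gene could just exceed 2-fold. The log2 fold change of Cycs was 1.014 without Adv-ABHD11 replicate 1, and that of Atp5k was 1.007 without Adv-NC replicate 2. The mtDNA genes ran from 0.29 to 2.20 with a median of 0.62, and 2 of 6 (mt-Co1 and mt-Atp8) were at least 2-fold higher, beside 8.09% of all genes tested. Without Adv-ABHD11 replicate 2, or with the GC and length trend removed, mt-Atp8 was under 2-fold, at log2 fold changes of 0.41 and 0.89. The order of the medians also turned: without that library it was 0.36 for the mtDNA and 0.50 for the nuclear genes, and with the trend removed 0.18 and 0.47. The summed level of the nuclear genes was 27814 ± 2030 CPM with Adv-ABHD11 and 20697 ± 1014 CPM with Adv-NC, a 1.34-fold difference. That of the 6 mtDNA genes was 50678 ± 11178 CPM with Adv-ABHD11 and 19082 ± 1102 CPM with Adv-NC, a 2.66-fold difference. Of these sums mt-Co1 alone held 33700 ± 6468 CPM with Adv-ABHD11 and 7359 ± 406 CPM with Adv-NC, so the fold rests largely on this mRNA. The fold of the sum was 2.36 without Adv-ABHD11 replicate 2, the library with the largest share of mtDNA counts. A difference between the genomes was not tested.

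**Figure D1:**
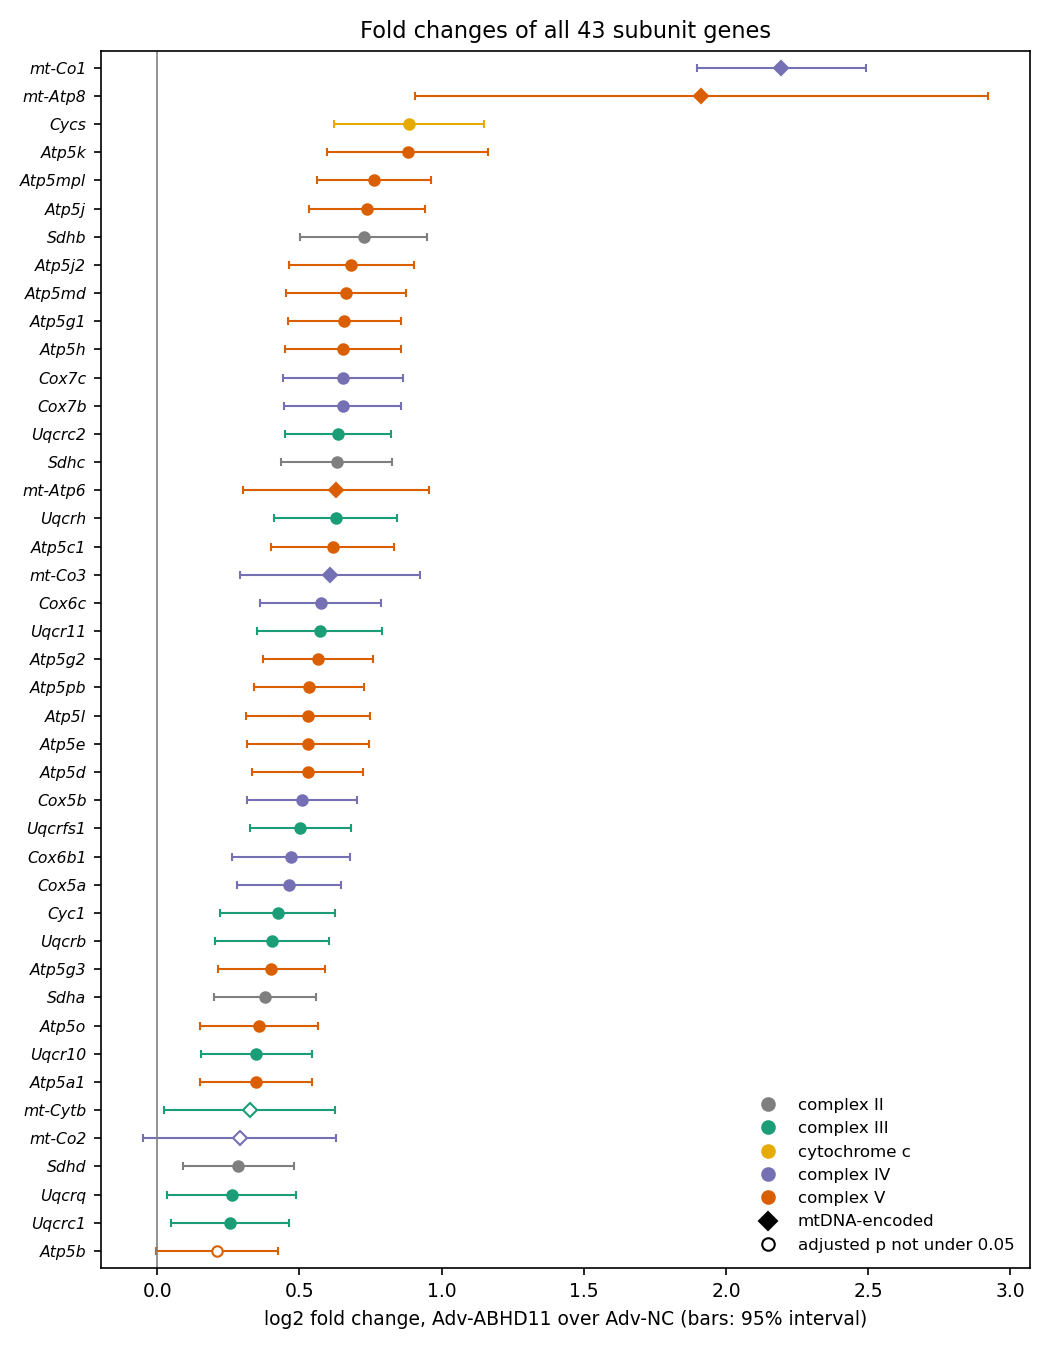
Log2 fold change of each of the 43 subunit genes, Adv-ABHD11 over Adv-NC (x axis), from the edgeR fit over all genes, with 95% intervals, coloured by complex. Diamonds are mtDNA genes and open symbols did not pass. The nuclear genes sit between 0.21 and 0.89, and mt-Co1 at 2.20 and mt-Atp8 at 1.91 (0.41 without Adv-ABHD11 replicate 2) stand apart.

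The mtDNA-encoded subunits of complex IV form its catalytic core. The largest change of any subunit gene was in mt-Co1, which encodes the subunit that holds the heme and copper site where oxygen is reduced (chrM:5328-6872, plus strand, GRCm38). It had 26546, 39137 and 35417 CPM in the Adv-ABHD11 libraries, against 6941, 7753 and 7384 CPM in the Adv-NC libraries. Every Adv-ABHD11 library was thus more than 3 times the highest Adv-NC library. The log2 fold change was 2.20 ± 0.141 (SE, edgeR adjusted p = 3.79e-10), or 4.58-fold, and it was 2.08 without Adv-ABHD11 replicate 2. This single mRNA held 3.41 ± 0.597% of all counts with Adv-ABHD11 and 0.725 ± 0.0312% with Adv-NC.

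The other core subunits of complex IV changed far less. The mRNA of the third core subunit, mt-Co3, had 6386, 10633 and 7033 CPM with Adv-ABHD11, against 4984, 5588 and 5210 CPM with Adv-NC. The arms did not overlap, Adv-ABHD11 replicate 2 stood well above the rest, and the log2 fold change was 0.61 ± 0.150 (SE, edgeR adjusted p = 0.00200), or 0.36 without that library (adjusted p = 0.00763). With the GC and length trend removed it was 0.23 (adjusted p = 0.0244). The mRNA of the subunit that accepts electrons from cytochrome c, mt-Co2, had 1788, 3389 and 2303 CPM with Adv-ABHD11, against 1850, 2067 and 2197 CPM with Adv-NC. Here the arms overlapped, since the lowest of the 6 libraries was Adv-ABHD11 replicate 1, and the log2 fold change of 0.29 ± 0.162 did not pass (edgeR adjusted p = 0.131). It was 0.01 without Adv-ABHD11 replicate 2 and 0.48 without Adv-ABHD11 replicate 1, where it passed (adjusted p = 0.0110).

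Ratios within a library do not depend on the scaling between libraries. The ratio of mt-Co1 to mt-Co2 counts was 14.8, 11.5 and 15.4 with Adv-ABHD11, against 3.75, 3.75 and 3.36 with Adv-NC. The ratio of mt-Co3 to mt-Co2 was 3.57, 3.14 and 3.05 with Adv-ABHD11, against 2.69, 2.70 and 2.37 with Adv-NC. Both ratios were higher in every Adv-ABHD11 library than in any Adv-NC library, and the first moved much further than the second. Per kilobase of transcript, mt-Co1 led with Adv-ABHD11, at 21812 CPM per kb beside 10226 for mt-Co3. With Adv-NC the order was the reverse, at 4763 CPM per kb for mt-Co1 beside 6710 for mt-Co3.

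Nuclear copies of mtDNA limit how these values can be read. GENCODE M21 annotates pseudogenes on chromosomes 1 and 2 that match mt-Co1, mt-Co2, mt-Co3 and mt-Atp6. The match was 100% over 681 bases for mt-Co2 (Gm28661), 783 bases for mt-Co3 (Gm28437) and 678 bases for mt-Atp6 (Gm10925), all on chromosome 1. For mt-Co1 it was 97.6% over all 1545 bases on chromosome 2 (Gm13340) and 99.8% over 483 bases on chromosome 1 (Gm29216). For mt-Cytb no copy of at least 200 bases at 95% identity was found among annotated genes. At 204 bases mt-Atp8 is too short for that search to be informative. None of these copies was among the symbols that were counted. How reads that fit both places were assigned is not given in the sources used here, and its part in the uneven values was not tested.

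The complex V subunits of mtDNA are mt-Atp6, subunit a, which with the c ring forms the proton path, and mt-Atp8, a small subunit beside it. The level of mt-Atp6 (chrM:7927-8607) was 3279, 5788 and 3716 CPM with Adv-ABHD11, against 2605, 2903 and 2753 CPM with Adv-NC. The arms did not overlap, and the log2 fold change was 0.63 ± 0.155 (SE, edgeR adjusted p = 0.00200). Without Adv-ABHD11 replicate 2 it was 0.35 (adjusted p = 0.00663), and after removal of the GC and length trends within libraries it was 0.13 and did not pass (adjusted p = 0.173).

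The level of mt-Atp8 (chrM:7766-7969) was 58.2, 391.8 and 61.6 CPM with Adv-ABHD11, against 37.4, 55.1 and 43.4 CPM with Adv-NC. Adv-ABHD11 replicate 2 stood far above the other 5 libraries, and the remaining Adv-ABHD11 values lay just above the highest Adv-NC value. The log2 fold change, 1.91 ± 0.479 (SE, edgeR adjusted p = 0.00228), was 0.41 without that library (adjusted p = 0.00582) and 0.89 with the GC and length trend removed (adjusted p = 0.0287), and DESeq2 did not call it with all libraries (adjusted p = 0.0549). The ratio of mt-Atp8 to mt-Atp6 was 0.0177, 0.0677 and 0.0166 with Adv-ABHD11, against 0.0144, 0.0190 and 0.0158 with Adv-NC, so the arms overlapped. The coding sequences share the same mRNA: the last 43 bases of mt-Atp8, or 21.1% of its 204, are also the first bases of mt-Atp6, and reads there fit both genes. Per kilobase of transcript, mt-Atp8 was at 222 CPM with Adv-NC, beside 4044 for mt-Atp6. With Adv-ABHD11 mt-Atp8 was at 836, a mean raised by replicate 2, beside 6257 for mt-Atp6. The part of the overlap in this gap was not tested. The whole mt-Atp8 gene is shown in GRCm38, plus strand, because of this overlap, with the shared bases in capitals.
mt-Atp8: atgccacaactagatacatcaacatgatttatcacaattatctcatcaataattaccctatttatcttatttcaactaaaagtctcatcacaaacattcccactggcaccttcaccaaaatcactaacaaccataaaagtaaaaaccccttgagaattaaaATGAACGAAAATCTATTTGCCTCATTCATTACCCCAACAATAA

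Complex III has a single mtDNA subunit, cytochrome b, which holds the ubiquinone sites. Its mRNA mt-Cytb (chrM:14145-15288) had 1528, 2601 and 1977 CPM with Adv-ABHD11, against 1490, 1729 and 1654 CPM with Adv-NC. Adv-ABHD11 replicate 1 fell within the Adv-NC range while the other Adv-ABHD11 libraries lay above it. The log2 fold change of 0.32 ± 0.142 did not pass (SE, edgeR adjusted p = 0.0575), and it was 0.12 without Adv-ABHD11 replicate 2 (adjusted p = 0.384). It passed without Adv-ABHD11 replicate 1, at 0.50 (adjusted p = 0.00441).

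**Figure D2:**
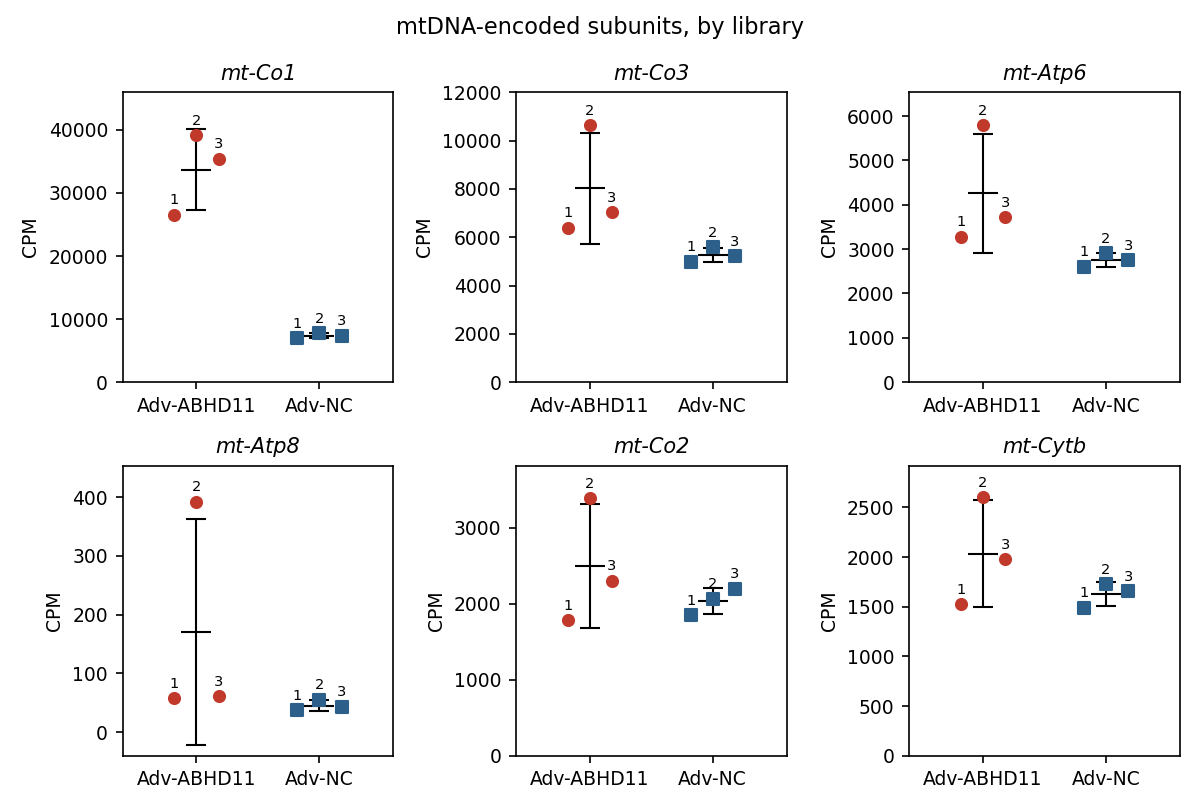
CPM of the 6 mtDNA-encoded subunit genes in each library (y axis, linear), with Adv-ABHD11 libraries as circles and Adv-NC libraries as squares, numbered by replicate, and mean ± SD (n = 3). The lower SD bar of mt-Atp8 with Adv-ABHD11 runs below 0, because replicate 2, at 391.8 CPM, lies so far above replicates 1 and 3. For mt-Co1 the lowest Adv-ABHD11 library, at 26546 CPM, is far above every Adv-NC library.

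Complex II, succinate dehydrogenase, is also an enzyme of the TCA cycle. All 4 of its genes were higher, and their median log2 fold change was 0.51. Sdhb, the iron-sulfur subunit that relays electrons toward ubiquinone, had the largest change, with 834, 969 and 738 CPM with Adv-ABHD11, against 488, 560 and 487 CPM with Adv-NC. The arms did not overlap, and the log2 fold change was 0.73 ± 0.106 (SE, edgeR adjusted p = 1.32e-05). Sdhd, one of the membrane anchors, had the smallest change, with 394, 447 and 394 CPM with Adv-ABHD11, against 324, 371 and 319 CPM with Adv-NC. Its arms did not overlap, though narrowly, and its log2 fold change was 0.29 ± 0.0931 (SE, edgeR adjusted p = 0.0136). Without Adv-NC replicate 3 it no longer passed (adjusted p = 0.0705). The other anchor, Sdhc, was at 0.63, and the flavoprotein Sdha, which binds succinate, was at 0.38. The summed level of the complex was 2245 ± 175 CPM with Adv-ABHD11 and 1550 ± 77.9 CPM with Adv-NC, or 1.45-fold.

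All 9 nuclear genes of complex III were higher, with the lowest median of the complexes, 0.42. Their summed level was 5198 ± 431 CPM with Adv-ABHD11 and 3953 ± 207 CPM with Adv-NC, or 1.31-fold. The core proteins, which are related to mitochondrial processing peptidases and carry no redox group, took both ends of the range. Uqcrc2, core protein 2, had 643, 702 and 655 CPM with Adv-ABHD11, against 423, 453 and 412 CPM with Adv-NC. These libraries were well separated, and the log2 fold change was 0.64 ± 0.0885 (SE, edgeR adjusted p = 7.74e-06). Uqcrc1, core protein 1, had 1617, 1726 and 1429 CPM with Adv-ABHD11, against 1333, 1388 and 1271 CPM with Adv-NC. Its lowest Adv-ABHD11 library stood just above its highest Adv-NC library, and its log2 fold change was 0.26 ± 0.0989 (SE, edgeR adjusted p = 0.0322). That call was lost without Adv-NC replicate 2 or 3 and without Adv-ABHD11 replicate 1 or 2, at adjusted p values of 0.0580 to 0.109.

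The redox subunits of complex III lay between these. Cyc1, cytochrome c1, which passes electrons to cytochrome c, had 1117, 1193 and 1012 CPM with Adv-ABHD11, against 807, 881 and 786 CPM with Adv-NC. The arms did not overlap, and the log2 fold change was 0.42 ± 0.0962 (SE, edgeR adjusted p = 0.00101). Uqcrfs1, the Rieske iron-sulfur protein, was at 0.50. Among the small subunits Uqcrh and Uqcr11 were at 0.63 and 0.57, Uqcrb and Uqcr10 at 0.40 and 0.35, and Uqcrq at 0.26. Uqcrq was the one nuclear gene whose arms overlapped, at 541, 647 and 488 CPM with Adv-ABHD11 and 423, 510 and 465 CPM with Adv-NC (edgeR adjusted p = 0.0441). It no longer passed without Adv-NC replicate 1 or 3, or without Adv-ABHD11 replicate 1 or 2.

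Cytochrome c carries electrons from complex III to complex IV and, once released to the cytosol, takes part in apoptosis. Its somatic gene Cycs had the largest change of the 37 nuclear genes, with 500, 771 and 571 CPM with Adv-ABHD11, against 337, 351 and 309 CPM with Adv-NC. Adv-ABHD11 replicate 2 was highest and the arms did not overlap. The log2 fold change was 0.89 ± 0.125 (SE, edgeR adjusted p = 9.37e-06), and it was 0.70 without that library. The count of Cycs is tied to a near-identical copy: Gm10053, a single-exon gene at chr19:24875686-24876631 in GRCm38, matched the Cycs mRNA (chromosome 6) over its full 946 bases with 1 difference. Their coding sequences of 318 bases, stop codon included, are identical, and the first 90 bases are shown to make plain that a read from this stretch cannot be placed by its sequence.
Cycs and Gm10053: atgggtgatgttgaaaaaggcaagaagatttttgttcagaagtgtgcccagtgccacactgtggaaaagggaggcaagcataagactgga
Gm10053 was also higher, at 330 ± 34.6 CPM with Adv-ABHD11 and 194 ± 14.5 CPM with Adv-NC (log2 fold change 0.76, edgeR adjusted p = 2.39e-06). The split between the copies is uncertain, while their sum does not depend on it: 944 ± 174 CPM with Adv-ABHD11 and 527 ± 33.7 CPM with Adv-NC, or 1.79-fold.

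All 6 nuclear genes of complex IV in the set were higher, within a narrow range of log2 fold changes from 0.46 to 0.65. These subunits surround the mtDNA-encoded core. Cox7c, a small membrane-spanning subunit, had the largest change, with 404, 500 and 432 CPM with Adv-ABHD11, against 254, 308 and 288 CPM with Adv-NC. The arms were well apart, at 0.65 ± 0.101 (SE, edgeR adjusted p = 2.41e-05). Cox5a, which faces the matrix, had the smallest change, with 472, 515 and 474 CPM with Adv-ABHD11, against 344, 370 and 345 CPM with Adv-NC. Its arms did not overlap either, at 0.46 ± 0.0867 (SE, edgeR adjusted p = 1.71e-04). Cox5b, the subunit that binds zinc, lay between them, with 525, 589 and 509 CPM with Adv-ABHD11, against 354, 387 and 400 CPM with Adv-NC. It too separated the arms, at 0.51 ± 0.0922 (SE, edgeR adjusted p = 1.25e-04). Cox7b, Cox6c and Cox6b1 were at 0.65, 0.57 and 0.47. The summed nuclear level was 2588 ± 227 CPM with Adv-ABHD11 and 1778 ± 121 CPM with Adv-NC, or 1.46-fold. The mtDNA subunits of the same complex were 3.02-fold higher by sum, a fold that rests largely on mt-Co1. That mRNA was 4.58-fold higher, beside 1.52-fold for mt-Co3 and 1.22-fold for mt-Co2, which did not pass.

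**Figure D3:**
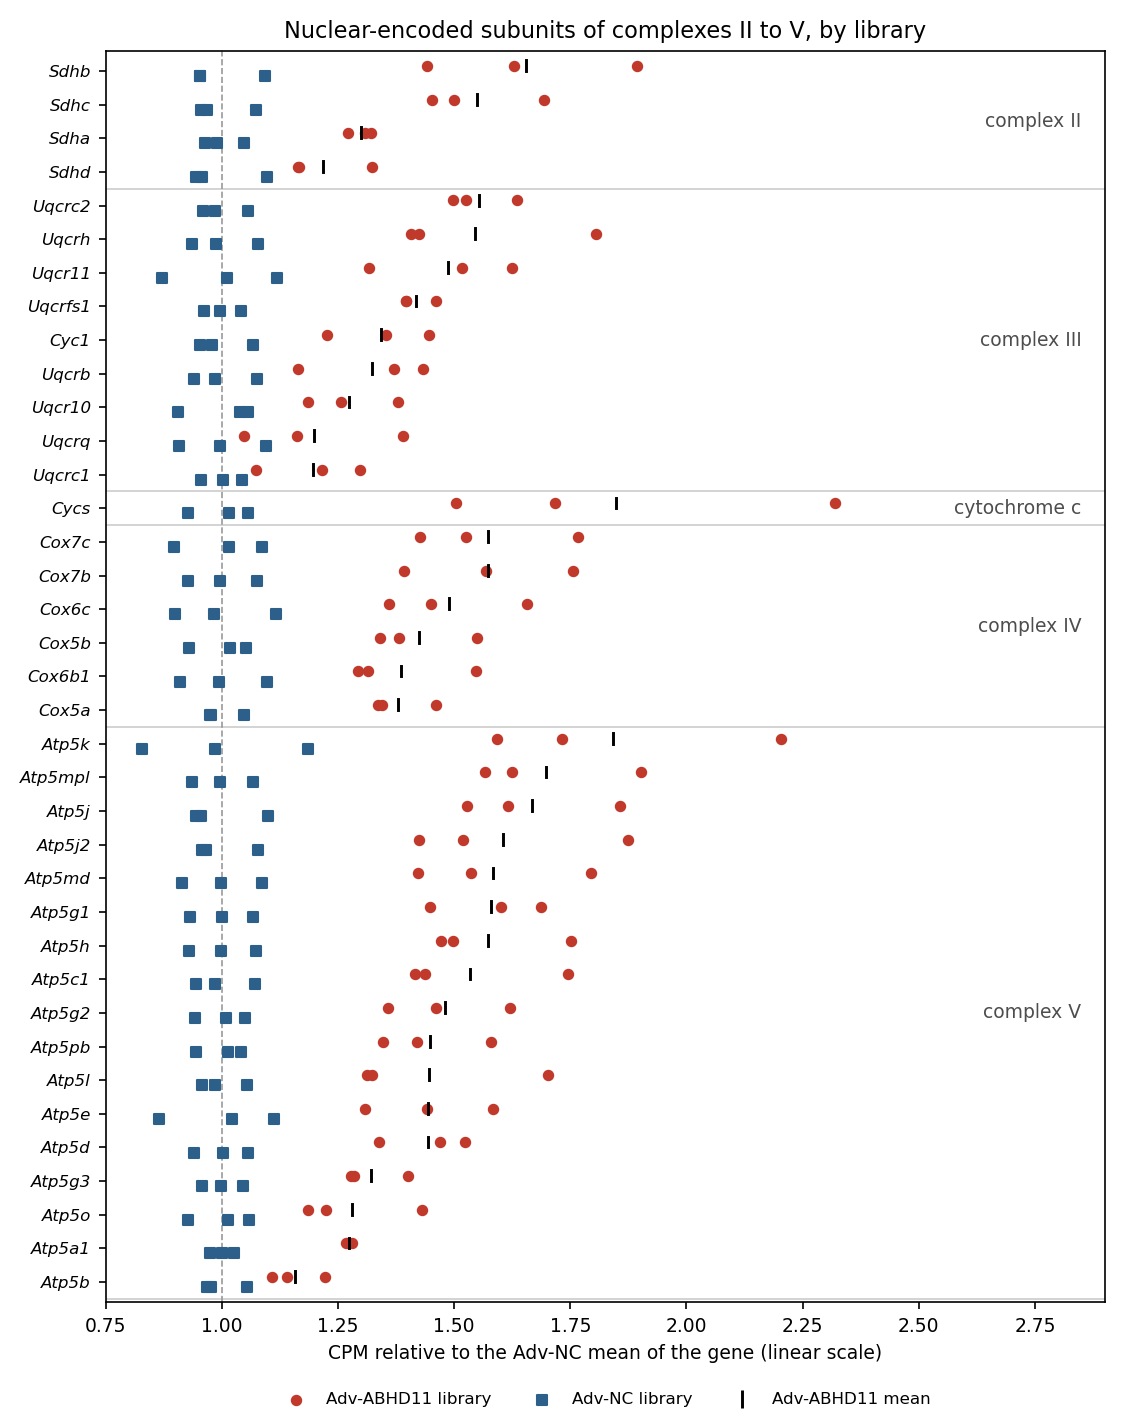
CPM of the 37 nuclear-encoded subunit genes in each library, divided by the gene's Adv-NC mean (x axis, linear, dashed line at 1), grouped by complex and ordered by fold change. Circles are Adv-ABHD11 libraries, squares are Adv-NC libraries and short vertical bars are Adv-ABHD11 means. The arms overlap for Uqcrq and not for the other 36.

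ATP synthase has a catalytic head (F1), a ring of c subunits that turns as protons pass, a peripheral stalk that holds the head still, and small membrane subunits that link synthases into dimers. Of its 17 nuclear genes 16 were higher, and the median log2 fold change was 0.57. In F1, 4 of 5 were higher, with a median of 0.53, and in the c ring 3 of 3, with a median of 0.57. In the peripheral stalk 4 of 4 were higher, with a median of 0.59, and among the membrane subunits 5 of 5, with a median of 0.68. Differences between these medians were not tested. The summed level of the 17 was 17169 ± 1093 CPM with Adv-ABHD11 and 13084 ± 605 CPM with Adv-NC, or 1.31-fold.

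The smallest and largest changes among nuclear genes of complex V were in the genes with the highest and lowest level per kilobase of transcript. Atp5b, the catalytic beta subunit, was at 3204 CPM per kb with Adv-ABHD11 and 2769 with Adv-NC, and Atp5k, the membrane subunit e, at 159 with Adv-ABHD11 and 86.0 with Adv-NC. Not scaled to length, Atp5b had 6056, 6482 and 5878 CPM with Adv-ABHD11, against 5187, 5595 and 5137 CPM with Adv-NC. The arms did not overlap, but the log2 fold change of 0.21 ± 0.102 did not pass (SE, edgeR adjusted p = 0.0852). Its call depended on the setting: it passed with DESeq2 (adjusted p = 0.0206), upper-quartile scaling (0.00925), library size only (0.0144) and the GC and length trend removed (4.94e-04). Atp5k had 47.9, 60.9 and 44.1 CPM with Adv-ABHD11, against 22.9, 32.8 and 27.3 CPM with Adv-NC. All Adv-ABHD11 values were above the Adv-NC values, and the log2 fold change was 0.88 ± 0.134 (SE, edgeR adjusted p = 2.13e-05). The alpha subunit Atp5a1, partner of Atp5b in the head, was at 0.35, while the gamma, delta and epsilon subunits of the turning central stalk, Atp5c1, Atp5d and Atp5e, were at 0.62, 0.53 and 0.53. In the peripheral stalk, Atp5j, Atp5h and Atp5pb were at 0.74, 0.65 and 0.53, and Atp5o, the link to the top of the head, at 0.36. The membrane subunits Atp5mpl, Atp5j2, Atp5md and Atp5l were at 0.76, 0.68, 0.66 and 0.53.

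The c subunit is encoded by 3 genes whose mature proteins are the same and whose import sequences differ. Atp5g1 had 765, 807 and 693 CPM with Adv-ABHD11, against 446, 510 and 479 CPM with Adv-NC, and its log2 fold change was 0.66 ± 0.0942 (SE, edgeR adjusted p = 1.04e-05). Atp5g2 had 349, 387 and 324 CPM with Adv-ABHD11, against 225, 241 and 250 CPM with Adv-NC, at 0.57 ± 0.0915 (adjusted p = 4.04e-05). Atp5g3 had 694, 758 and 692 CPM with Adv-ABHD11, against 518, 566 and 540 CPM with Adv-NC, at 0.40 ± 0.0890 (adjusted p = 8.31e-04). All 3 rose without overlap between the arms, but not to the same degree. As a share of summed c-subunit CPM, Atp5g1 took 41.4 ± 0.894% with Adv-ABHD11 and 38.0 ± 0.660% with Adv-NC, Atp5g3 took 39.2 ± 1.11% with Adv-ABHD11 and 43.02 ± 0.526% with Adv-NC, and neither share overlapped between the arms. The share of Atp5g2 overlapped, at 19.3 ± 0.424% with Adv-ABHD11 and 19.0 ± 0.731% with Adv-NC.

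**Figure D4:**
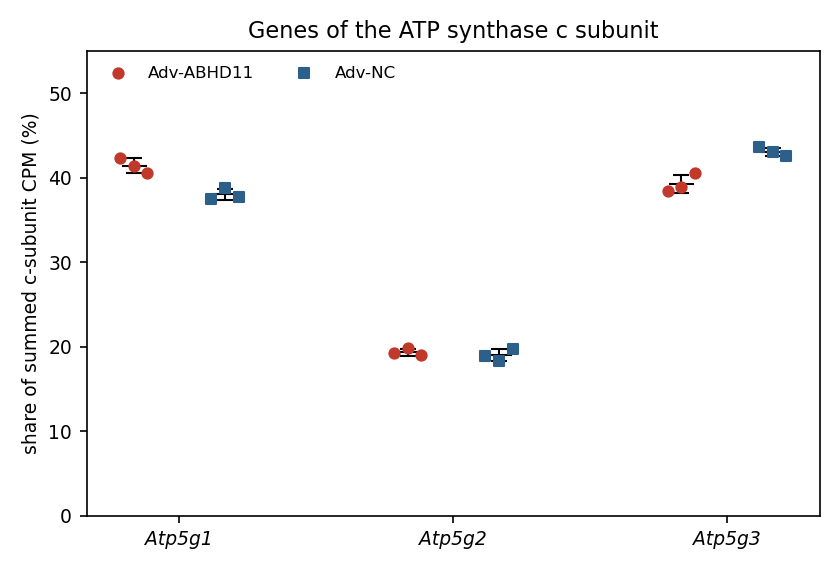
Share of summed c-subunit CPM held by each of the 3 genes, in percent (y axis), with Adv-ABHD11 libraries as circles, Adv-NC libraries as squares, and mean ± SD (n = 3). The share of Atp5g1 is higher in every Adv-ABHD11 library, at a mean of 41.4% against 38.0%, and that of Atp5g3 is lower.

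The balance between the genomes was compared within each library, as the summed mtDNA count over the summed nuclear count of the same complex. For complex IV the ratio was 14.3, 18.7 and 17.99 with Adv-ABHD11, against 8.30, 8.11 and 8.33 with Adv-NC, so it was higher in every Adv-ABHD11 library. For complex III it was 0.298, 0.460 and 0.412 with Adv-ABHD11, against 0.389, 0.412 and 0.431 with Adv-NC. For complex V it was 0.199, 0.336 and 0.232 with Adv-ABHD11, against 0.209, 0.215 and 0.218 with Adv-NC. The arms overlapped for complexes III and V, where the lowest and the highest ratio were both from Adv-ABHD11 libraries (replicates 1 and 2). The mtDNA-to-nuclear ratio of the complex V subunits was 1.19 times as high with Adv-ABHD11 as with Adv-NC by group means, and 1.01 times without Adv-ABHD11 replicate 2. Within complex IV, mt-Co1 was 4.58-fold higher, beside 1.52-fold for mt-Co3, 1.22-fold for mt-Co2 and 1.46-fold for the nuclear sum. The higher complex IV ratio thus rested on mt-Co1. By sum, the mtDNA subunits were 1.25-fold higher for complex III with overlap between the arms, and 1.58-fold higher for complex V without overlap. Without Adv-ABHD11 replicate 2 these were 1.08-fold and 1.27-fold.

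**Figure D5:**
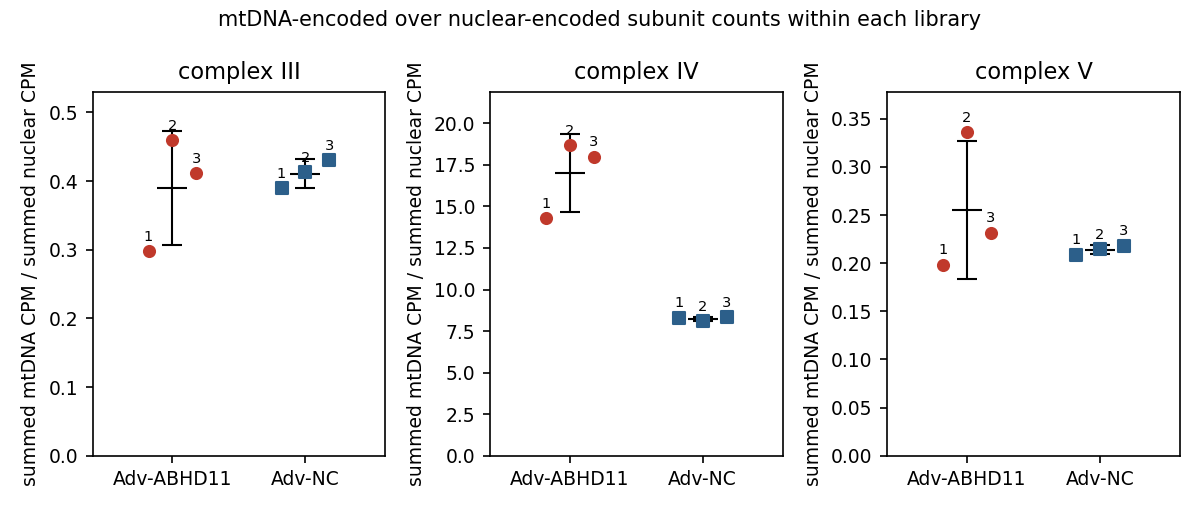
Summed CPM of mtDNA-encoded subunits divided by summed CPM of nuclear-encoded subunits of the same complex in each library (y axis), with Adv-ABHD11 as circles, Adv-NC as squares, replicate numbers beside the points, and mean ± SD (n = 3). The arms separate for complex IV, at 14.3 to 18.7 against 8.11 to 8.33, and overlap for complexes III and V. The complex IV sum includes mt-Co1, which was 4.58-fold higher.

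The genes varied together across the libraries of a group. Adv-ABHD11 replicate 2 was the highest of its group for 35 of 37 nuclear and 6 of 6 mtDNA genes, and Adv-NC replicate 2 was the highest of its group for 33 of 37 and 5 of 6. The subunit genes are therefore not independent of each other, and the count of 40 higher genes is not 40 separate observations. The median coefficient of variation of the nuclear genes was 9.81% with Adv-ABHD11 and 6.72% with Adv-NC. That of the mtDNA genes was 30.0% with Adv-ABHD11 and 6.66% with Adv-NC. Across the 37 nuclear genes, the log2 fold change had a Pearson correlation of -0.576 with the log2 CPM in Adv-NC, -0.251 with GC content and -0.143 with transcript length. The Adv-NC level is also the denominator of the fold change, so spread in Adv-NC alone pulls the correlation with it below 0. All these values describe genes that share the same libraries, and genes are not independent replicates.

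The rise of nuclear subunit genes was smaller than that of the cardiomyocyte markers, whose median log2 fold change was 0.88. The summed nuclear subunit level divided by the summed cardiomyocyte marker level was 0.498, 0.566 and 0.514 with Adv-ABHD11, against 0.650, 0.737 and 0.703 with Adv-NC. It was lower in every Adv-ABHD11 library. Whether a difference in the share of cardiomyocytes or of their RNA moved the subunit genes was not tested.

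Assembly factors, which help to build the complexes, are given beside the 29.9% higher and 29.5% lower of all genes tested, and differences from those shares or from the subunit genes were not tested. For assembly factors of complex II 3 of 4 tested were higher and 0 lower (median log2 fold change 0.69), among them Sdhaf1, which helps iron-sulfur clusters into Sdhb, at 22.7 ± 1.12 CPM with Adv-ABHD11 and 13.97 ± 2.06 CPM with Adv-NC. For complex III 3 of 6 were higher and 1 lower (median 0.24), with Bcs1l, which inserts the Rieske protein, at 52.7 ± 5.75 CPM with Adv-ABHD11 and 30.9 ± 1.46 CPM with Adv-NC. For complex IV 12 of 25 were higher and 3 lower (median 0.27). In that list Cox20, a chaperone of the mt-Co2 protein, was at 48.6 ± 6.89 CPM with Adv-ABHD11 and 19.9 ± 2.31 CPM with Adv-NC, or 2.45-fold. Sco2, a copper chaperone for the same protein, was lower, at 19.5 ± 5.35 CPM with Adv-ABHD11 and 38.0 ± 3.20 CPM with Adv-NC (log2 fold change -0.97, edgeR adjusted p = 1.91e-05). For complex V 5 of 6 were higher and 0 lower (median 0.48), including Atpif1, the inhibitor that blocks ATP hydrolysis by the synthase, at 1.43-fold.

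Other subunits of complex IV, which the choice of genes left out, were higher for 11 of 11 (median 0.77), beside the same 29.9% of all genes tested. They include isoforms that differ between tissues. Cox4i2, an isoform known for its induction by low oxygen and its expression in lung and smooth muscle, was at 38.8 ± 3.55 CPM with Adv-ABHD11 and 12.4 ± 1.83 CPM with Adv-NC, or 3.12-fold, in libraries that also differed in lung and smooth muscle markers. The striated muscle isoform Cox6a2 was 1.79-fold higher and Ndufa4 1.87-fold. Against that share, nuclear subunits of complex I were higher for 36 of 37 and lower for 0, with a median of 0.56, close to that of complexes II to V. The mtDNA subunits of complex I were higher for 6 of 7, with a median of 1.06. A list of genes that transcribe or copy mtDNA or act on its RNA had 2 of 16 higher and 2 lower, with a median of 0.01. Each count was a smaller share than the 29.9% higher and 29.5% lower of all genes tested. The 2 higher genes were Tfb1m, a methyltransferase of mitochondrial rRNA, at 1.85-fold, and Lrpprc, a factor of mitochondrial mRNA, at 1.21-fold. For Lrpprc the arms overlapped (edgeR adjusted p = 0.0340), and this gene is also counted among the higher assembly factors of complex IV. The helicase Twnk and the polymerase Polg were lower, at log2 fold changes of -0.42 and -0.29 (edgeR adjusted p = 0.00240 and 0.00917).

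Promoter sequences from RefSeq, of 250 bases before to 50 after the start of a gene in GRCm38.p6, were at hand for 29 of the 37 nuclear genes. They were searched on both strands for letters that are known binding motifs of regulators of respiratory genes. The NRF1 motif, GCGCA and GCGC with 1 base of any kind between them, was in 27.6% of the 29, beside 10.2% of the promoters of all tested genes and 4.78% of all promoters in the table. CCGGAAG, a motif of GABP and other ETS factors, was in 34.5%, beside 17.9% and 9.12%. AAGGTCA, a motif of ERR factors, was in 17.2%, beside 2.93% and 4.66%, AANATGGC, a motif of YY1, in 13.8%, beside 8.57% and 6.23%, and GGGCGG, a motif of SP1, in 34.5%, beside 65.4% and 35.9%. A match is a description of letters and not a bound site, and no difference between these shares was tested.

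The promoters of the genes with the largest change in each complex, of those at hand, are shown with that of Atp5b, the nuclear gene that did not pass. They show that Cycs and Atp5k, with log2 fold changes of 0.89 and 0.88, differ in which exact motif letters they hold. Only exact matches were counted, so a motif that differs by a base is not marked. Such unmarked stretches include tcgcatgcgc in Cycs and gggcatgcgc in Sdhb, each a base off the NRF1 letters. The contrast between Cycs and Atp5k in NRF1 letters therefore depends on the exact letters searched. Capitals mark matches to the motifs above on either strand. Atp5k holds the NRF1, ETS and ERR letters once each, Sdhb the ETS letters once and the SP1 letters 3 times, and Uqcrh the ETS letters once. Cycs holds the SP1 letters once, Atp5b the YY1 letters once and the SP1 letters 2 times, and Cox7c none of the motifs searched. They lie at chr5:108434350-108434649 (minus strand) for Atp5k, chr4:140961021-140961320 (plus) for Sdhb, chr4:116075021-116075320 (minus) for Uqcrh, chr6:50566520-50566819 (minus) for Cycs, chr10:128083057-128083356 (plus) for Atp5b and chr13:86046746-86047045 (minus) for Cox7c.
Atp5k: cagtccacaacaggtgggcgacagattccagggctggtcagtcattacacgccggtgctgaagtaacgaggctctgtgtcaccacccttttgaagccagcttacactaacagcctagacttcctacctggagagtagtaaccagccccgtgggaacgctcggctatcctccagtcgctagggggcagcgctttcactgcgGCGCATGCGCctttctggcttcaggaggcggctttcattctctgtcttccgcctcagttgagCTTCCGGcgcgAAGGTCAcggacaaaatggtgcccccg
Sdhb: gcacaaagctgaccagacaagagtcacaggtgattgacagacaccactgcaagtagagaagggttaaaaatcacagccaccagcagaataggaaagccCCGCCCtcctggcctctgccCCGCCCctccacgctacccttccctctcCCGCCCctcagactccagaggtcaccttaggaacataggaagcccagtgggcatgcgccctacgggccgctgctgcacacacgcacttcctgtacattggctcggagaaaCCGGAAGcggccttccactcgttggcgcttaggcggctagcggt
Uqcrh: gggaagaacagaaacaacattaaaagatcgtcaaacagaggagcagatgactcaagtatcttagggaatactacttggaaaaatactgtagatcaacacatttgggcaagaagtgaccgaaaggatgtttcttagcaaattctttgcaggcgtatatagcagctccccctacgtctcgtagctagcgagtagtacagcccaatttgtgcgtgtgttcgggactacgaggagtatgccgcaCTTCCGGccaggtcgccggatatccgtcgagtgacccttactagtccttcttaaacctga
Cycs: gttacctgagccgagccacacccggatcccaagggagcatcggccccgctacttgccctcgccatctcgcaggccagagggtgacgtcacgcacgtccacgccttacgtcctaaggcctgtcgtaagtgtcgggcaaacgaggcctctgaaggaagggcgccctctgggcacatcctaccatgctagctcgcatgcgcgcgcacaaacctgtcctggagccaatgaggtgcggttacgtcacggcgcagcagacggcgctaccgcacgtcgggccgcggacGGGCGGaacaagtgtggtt
Atp5b: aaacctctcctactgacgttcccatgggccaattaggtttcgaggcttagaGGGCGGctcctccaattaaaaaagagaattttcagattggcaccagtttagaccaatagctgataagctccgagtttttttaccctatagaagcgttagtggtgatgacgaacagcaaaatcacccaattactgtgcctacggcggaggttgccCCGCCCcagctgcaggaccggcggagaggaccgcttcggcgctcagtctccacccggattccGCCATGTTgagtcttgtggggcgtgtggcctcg
Cox7c: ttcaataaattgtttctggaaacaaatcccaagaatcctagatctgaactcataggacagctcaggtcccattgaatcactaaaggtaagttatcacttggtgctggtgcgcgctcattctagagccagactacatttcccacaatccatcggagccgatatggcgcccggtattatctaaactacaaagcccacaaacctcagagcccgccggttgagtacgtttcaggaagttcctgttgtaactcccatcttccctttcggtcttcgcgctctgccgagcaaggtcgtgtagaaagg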

How the data were processed

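RNA-seq was compared between 3 Adv-ABHD11 and 3 Adv-NC libraries. Each deposited file lists 1 expected count for every symbol, per the file headers, with no scaling. Trimmomatic 0.39, HISAT2, RSEM, DESeq2 and mm10 are named in the submitters' processing notes, without their roles; strandedness and the annotation are not given in the sources used here. Reads that fit several genes are divided between them by estimation in RSEM.

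Expected counts were rounded, since 8.92% to 10.1% of genes above 0 were fractional. For the 22 rows that repeated a symbol (0.00899% of counts), the row with most counts was kept. Genes passed filterByExpr (minimum count 10, minimum total 15). Libraries were scaled by TMM and tested in edgeR 4.0.16 (R 4.3.3) with the quasi-likelihood F test, p-values being adjusted by Benjamini-Hochberg over all 12790 genes at 0.05. The SE was the absolute log2 fold change over the square root of F, and CPM used TMM-scaled totals. Group sums and ratios had no test. The fit was checked on simulated data, where 38 of 50 genes changed 1.5-fold and 49 of 50 changed 2-fold were recovered, with 9 false calls. Far fewer genes were changed there than the 59.3% called in the data, so this check does not test the scaling. Alternatives were DESeq2 1.42.0, other scalings, no filter, mtDNA rows left out, each library left out, a replicate block, and removal of GC and length trends by loess, which was chosen after seeing the data.

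Coordinates, lengths and GC content are from GENCODE M21 (GRCm38). Copies were sought with blastn at 95% identity over at least 200 bases. The replicate numbers come from the titles; deviations from the group means correlated at 0.0141, 0.180 and -0.0904 for numbers 1, 2 and 3, so the numbers were not taken to pair libraries. The genes, lists and tests were chosen with earlier results of these data known. Values in every library were given for the mtDNA genes, for the largest and smallest change and the highest level among nuclear genes of each complex, for genes that did not pass, for Cycs and Cyc1, and for the c-subunit genes. Uqcrq was added after its values were seen. In the other lists up to 3 genes with the smallest adjusted p could be named, and Lrpprc was added afterwards.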

Additional observations from a re-analysis of the deposited data

How the results depend on the processing

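The number of higher subunit genes was 37 to 43 of 43 over all alternatives run, with 0 lower in each, the nuclear number was 33 to 37 of 37, and the mtDNA number was 3 to 6 of 6, at 3 with DESeq2 and with the GC and length trend removed. With the replicate block 42 were higher (37 nuclear and 5 mtDNA). Leaving out 1 library at a time gave 37 to 40 higher, 33 to 36 nuclear and 4 to 6 mtDNA. The ratio of mtDNA to nuclear levels of complex III, 0.948 times that of Adv-NC by group means, ran from 0.863 to 1.06, turning above 1 without Adv-ABHD11 replicate 1. With the GC and length trend removed, mt-Co2 was at -0.13 (edgeR adjusted p = 0.247) and mt-Cytb at -0.0080 (adjusted p = 0.941), the other values that turned; Uqcrb then did not pass, and the cause was not tested. Of 274 values for 20 named genes under alternatives, 253 kept direction and side of the threshold, 12 came to pass, 7 no longer passed and 2 turned. Uqcrq was lost in 4 of the 6 fits without 1 library. Upper-quartile scaling moved the median of all genes by 0.107 on the log2 scale. Under that scaling mt-Co2 (adjusted p = 0.0444) and mt-Cytb (0.0154) passed; mt-Cytb also passed with library size only (0.0316), no filter (0.0240) and the block (0.0195), as did Atp5b with the block (0.0482). With 3 libraries a group, the number of libraries limits precision.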
